A study of Rattus norvegicus with 18 samples.

Results

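Retinoids reach the colon wall as retinol and act there as retinoic acid, and 9 genes of this route are described here: the serum carrier Rbp4, the cellular binding proteins Rbp2, Rbp7 and Crabp2, the enzymes Dhrs3, Aldh1a1 and Aldh1a2, the receptor gene Rarb, and Rarres2, which encodes chemerin. They are 9 of the 14217 genes that the array's single-symbol probe sets stand for. Each has 1 probe set that the platform annotation maps to its symbol alone, and no further probe set names it among several symbols. The genes were chosen by name with their values on these same arrays known, so their differences between groups are given as a description and carry no test of their own.

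Colitis was induced in rats by trinitrobenzene sulfonic acid (TNBS), which modifies proteins of the colon wall once ethanol has opened the mucosal barrier. On day 0 each TNBS rat was given 10 mg TNBS in 50% ethanol as an enema, and full-thickness colon of 3 rats each was taken on days 2, 5, 7 and 14. The control group was 6 healthy rats given saline by the same route, for which the labels give no sampling day. The sources used here give no strain, sex or age. No group received ethanol without TNBS, so the effects of the hapten and of its vehicle cannot be told apart. The labels name Trizol as the extraction entry of the TNBS samples and a technical manual as that of the controls, so this entry and the treatment cannot be told apart either. The TNBS rats at each day were picked on inflammatory markers, among them myeloperoxidase activity and weight loss. RNA of the homogenised wall was read on 1 Affymetrix Rat Genome 230 2.0 array per sample, so fewer cells of a type and less RNA per cell cannot be told apart.

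Retinol bound to its cellular carriers is stored as esters or oxidised to retinal by retinol dehydrogenases, and Dhrs3 turns retinal back into retinol. Retinal dehydrogenases of the Aldh1a family make retinoic acid from retinal, Crabp2 carries retinoic acid towards the nucleus, and the receptors Rara, Rarb and Rarg bind it on DNA together with Rxr partners. In the gut wall, retinoic acid is known for imprinting lymphocytes with gut homing receptors and for its part in tolerance, with epithelium, dendritic cells and stroma as known sources.

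The deposited control arrays had medians between 4.27 and 4.30 on the log2 scale and the TNBS arrays between 5.02 and 5.07. Levels and differences are therefore given after quantile normalization across the 18 arrays, on the log2 scale, unless the deposited scale is named. The words rose and fell are kept for genes to which limma gave an adjusted p under 0.05, over 31042 probe sets, in one direction on both scales; such a gene is also said to have passed. Falls are held to more than rises by this condition, since the deposited TNBS values are shifted up as a whole: against control every call of higher made after quantile normalization was kept, but of the calls of lower it kept 162 of 3058 for day 2, 337 of 4481 for day 5, 331 of 4940 for day 7 and 42 of 1891 for day 14. Markers of colonic epithelium and smooth muscle were bright in control colon, with list means of 11.59 and 11.88. Over all probe sets, day 2 replicate 1 was more like the day 14 arrays than its own group. Its mean correlation was 0.970 with the other day 2 arrays and 0.987 with the day 14 arrays. Day 5 replicate 1 showed the same by less, at 0.980 with its own group and 0.984 with day 14. The own-group value alone did not single these arrays out. It was 0.971 for day 2 replicate 3 and 0.974 for day 5 replicate 2. Without day 2 replicate 1, the day 2 differences of the genes not called either way were -1.56 for Rbp2, -0.44 for Rbp4, 0.26 for Crabp2, -0.79 for Dhrs3, 0.21 for Rarb and 0.46 for Rarres2; those of the other 3 genes stand beside their results. Without day 5 replicate 1, the day 5 differences were -1.29 for Rbp2, -0.69 for Rbp4, -1.61 for Rbp7, -0.87 for Dhrs3, -0.15 for Rarb and -0.18 for Rarres2, none of which passed. The same fit gave -2.26 for Aldh1a1 and 1.15 for Aldh1a2, both of which passed. Errors after a plus-minus sign are standard errors (SE) from the limma fit unless SD is named.

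Against control, 2 of the 9 genes passed on both scales on day 2, 2 on day 5, 2 on day 7 and 0 on day 14. On day 2 Aldh1a2 rose and Rbp7 fell, where 9.13% of all probe sets rose and 0.522% fell. On day 5 Aldh1a2 rose and Aldh1a1 fell, against 12.1% and 1.09% of all probe sets. On day 7 Aldh1a2 and Crabp2 rose and none of the 9 fell, against 12.4% and 1.07%. On day 14 none passed, against 5.61% of probe sets that rose and 0.135% that fell. The median difference of the 9 genes was -0.52, -0.74, -0.28 and -0.24 on days 2, 5, 7 and 14, beside -0.01, -0.02, -0.04 and -0.02 over all probe sets. On the deposited scale the medians of the 9 genes were 0.14, -0.04, 0.40 and 0.36, so the sign of the median turns with the scale on days 2, 7 and 14. Since the genes were chosen from these comparisons, nothing is read from their counts beyond the named genes.

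Rbp4 is the carrier that brings retinol from the liver and from fat through the blood. Its probe set (1371762_at; gene at chr1:245306349-245313551 in GRCr8) read between 4.24 and 6.24 in control, with a median of 4.64. The day 2 arrays gave 3.97, 4.88 and 4.08, the day 5 arrays 4.09, 4.36 and 4.10, those of day 7 3.74, 4.87 and 4.22, and those of day 14 3.72, 4.92 and 3.98. On each of days 2, 5, 7 and 14 only replicate 2 lay within the control range. Of the 12 TNBS arrays 8 lay below every control array after quantile normalization, and 0 did as deposited. Control replicates 1 and 6 stood above all other arrays. The difference from control lay between -0.74 and -0.61 on the 4 days with an SE of 0.40. On the deposited scale it was 0.10, -0.04, 0.04 and -0.03 on days 2, 5, 7 and 14. The sign thus turns with the scale on days 2 and 7. Rbp4 did not pass on any day.

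The level of Rbp4 moved from array to array with the mean of a list of fat markers. The mean of 7 of 8 listed adipocyte markers correlated with Rbp4 at r = 0.81 over the 18 arrays and r = 0.73 over the 12 TNBS arrays. This is a description over arrays that share their libraries. The markers themselves differed in direction, and on day 7 1 of the 7 rose and 1 fell. Day 7 means were above control for Fabp4 (9.40, control 7.74), Cfd (8.39, control 6.40) and Lep (3.81, control 3.69). They were below it for Adipoq (5.71, control 5.98), Plin1 (4.47, control 4.77), Cidec (5.67, control 6.02) and Pck1 (8.90, control 10.66). Control replicate 1 held both the highest Rbp4 (6.24) and the highest adipocyte mean among controls (7.52). Within each TNBS group the array with the most Rbp4, replicate 2, was also the one with the highest adipocyte mean, at 6.62, 6.58, 7.57 and 6.27 on days 2, 5, 7 and 14. The part of fat in the Rbp4 values was not tested.

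Rbp2 is the cellular retinol-binding protein of absorptive enterocytes, which hands retinol to the esterifying enzyme. Its probe set (1387766_a_at; chr8:107958670-107983850 in GRCr8) read between 4.90 and 7.84 in control, with a median of 5.55. On day 2 it gave 4.22, 4.15 and 4.26, the day 5 arrays 4.72, 4.22 and 4.75, those of day 7 4.20, 4.66 and 4.94, and those of day 14 6.33, 5.45 and 5.34. All arrays of days 2 and 5 lay below all control arrays after quantile normalization, and those of day 14 lay among them. The differences were -1.56, -1.21, -1.17 and -0.06 ± 0.46 on days 2, 5, 7 and 14. On the deposited scale they were -0.77, -0.41, -0.37 and 0.81, the groups overlapped on every day, and no difference passed. Control replicate 3 alone, at 7.84, made the control group wide.

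Rbp7 is a further small cytosolic retinol-binding protein of the same family. Its probe set (1374863_at; chr5:165169700-165177427 in GRCr8) read between 6.90 and 7.76 in control, with a median of 7.65. The arrays of day 2 read 5.00, 4.31 and 4.04, the day 5 arrays 7.02, 5.63 and 6.06, those of day 7 4.60, 7.40 and 5.94, and those of day 14 7.15, 7.03 and 6.78. Rbp7 was thus lowest on day 2, wide on day 7 and back among or just below the control arrays on day 14.

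On day 2 Rbp7 fell by 3.00 ± 0.45, that is 8.01-fold, with all 3 arrays below all 6 controls on both scales (deposited difference -2.28 ± 0.44). The difference was -3.28 without day 2 replicate 1, and it lay between -3.28 and -2.80 over the 9 fits that each leave out 1 array, all of which kept the call. On days 5, 7 and 14 it was -1.22, -1.47 and -0.47 ± 0.45, none of which passed on both scales. As deposited these were -0.49, -0.76 and 0.31, so the sign turns on day 14. Day 7 replicate 2, at 7.40, lay among the controls, and without it the day 7 difference was -2.18 and passed, while without day 7 replicate 1, at 4.60, it was -0.78 and did not. From day 2 to day 5 the mean was higher by 1.79, with no overlap between the arrays, but no call was made there.

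Epithelial markers differed among themselves on day 2. Their mean over 9 genes lay between 10.78 and 11.73 on day 2 and between 11.33 and 11.82 in control, and 1 of the 9 fell on both scales. Slc26a3, the chloride anion exchanger of colonocytes, averaged 9.78 on day 2 and 11.44 in control, while Cdh17, an intestinal cadherin, averaged 11.58 and 11.39. The marker mean correlated with Rbp7 at r = 0.71 over 18 arrays and 0.74 over the 12 TNBS arrays. With Rbp2 these values were 0.65 and 0.68. Lists of inflammatory cells gave negative values. For neutrophils r was -0.67 and -0.41 with Rbp7, and -0.66 and -0.69 with Rbp2. For macrophages and dendritic cells it was -0.60 and -0.31 with Rbp7, and -0.65 and -0.63 with Rbp2. Rbp2 and Rbp7 correlated with each other at r = 0.67 over 18 arrays and 0.72 over the TNBS arrays. Day 2 replicate 1 had an epithelial mean of 11.73, within the control range, and an Rbp7 of 5.00, below every control array. The part of epithelial content or of any other cell type in the Rbp7 and Rbp2 values was not tested.

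Crabp2 carries retinoic acid to its nuclear receptors. Its probe set (1370391_at; chr2:175714862-175719208 in GRCr8) read between 3.78 and 4.48 in control, with a median of 4.10. Day 2 gave 4.31, 4.32 and 4.40, the day 5 arrays 4.10, 4.70 and 4.74, those of day 7 4.24, 4.57 and 5.10, and those of day 14 3.68, 3.96 and 3.96. The groups overlapped control on every day after quantile normalization, and 4 of 12 TNBS arrays, all of days 5 and 7, lay above every control. Crabp2 rose by 0.53 ± 0.18 on day 7. That call was lost in 6 of 9 fits that leave out 1 array: without control replicate 1 (0.51), 2 (0.47), 4 (0.54) or 6 (0.52) and without day 7 replicate 2 (0.57) or 3 (0.30). Its other differences, 0.24 on day 2, 0.41 on day 5 and -0.24 on day 14, did not pass on both scales, and on the deposited scale that of day 14 was 0.36. Without day 5 replicate 1 the day 5 difference was 0.62 and passed.

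Among the marker lists, that of mesothelium, the cell layer of the serosa, had the highest correlation with Crabp2, at r = 0.73 over 18 arrays and 0.81 over the TNBS arrays. Its mean over 7 of 8 listed genes was between 5.23 and 5.54 in control, between 5.85 and 6.31 on day 5 and between 5.99 and 6.45 on day 7, where 4 and 3 of the 7 rose. The list holds the keratin Krt19, which epithelium also makes (13.14 in control, 12.73 on day 7). Krt19 and Bnc1 (3.09 in control, 2.93 on day 7) were lower on day 7 and the other measured genes higher. Among the latter Msln, a mesothelial surface protein, read 3.93 in control and 6.25 on day 7. Other lists came close, with r over the 18 arrays of 0.68 for macrophages and dendritic cells and 0.65 for neutrophils. Fibroblasts gave 0.63 and capillary endothelium 0.60. The part of mesothelium or of any other cell type in Crabp2 was not tested.

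Dhrs3 reduces retinal to retinol and so holds down the supply for retinoic acid. Its probe set (1373240_at; chr5:162031853-162065655 in GRCr8) read between 7.17 and 8.23 in control, with a median of 7.51. In the day 2 arrays it was 7.66, 7.03 and 6.67, the day 5 arrays 7.14, 6.80 and 6.75, those of day 7 6.97, 7.54 and 7.58, and those of day 14 7.69, 7.999 and 7.29. All 3 arrays of day 5 lay below the controls after quantile normalization, by a narrow margin, and the other days overlapped control. The differences were -0.52, -0.75, -0.28 and 0.01 ± 0.25, and on the deposited scale 0.14, -0.06, 0.40 and 0.74. The sign thus turns with the scale on days 2 and 7, and Dhrs3 did not pass on both scales on any day.

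Aldh1a1 and Aldh1a2 catalyse the same step, the oxidation of retinal to retinoic acid, and on day 5 Aldh1a1 fell and Aldh1a2 rose. Aldh1a1 is known in the gut from epithelium and Aldh1a2 from dendritic cells, stroma and mesothelium. The 150 bases before the start of each gene are shown because both hold the octamer ATGCAAAT, in capitals, on the strand of the gene. They are RefSeq's sequences for GRCr8, chr1:227537470-227537619 for Aldh1a1 and chr8:80758491-80758640 for Aldh1a2, both on the plus strand.
Aldh1a1: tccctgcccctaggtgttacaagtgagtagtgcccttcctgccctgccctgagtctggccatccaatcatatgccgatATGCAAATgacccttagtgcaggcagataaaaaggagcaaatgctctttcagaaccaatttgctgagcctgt
Aldh1a2: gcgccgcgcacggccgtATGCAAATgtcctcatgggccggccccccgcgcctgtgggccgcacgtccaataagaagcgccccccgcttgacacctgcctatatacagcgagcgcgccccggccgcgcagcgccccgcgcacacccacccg
The octamer begins at base -72 from the start of Aldh1a1 and at -133 from that of Aldh1a2, and it stood in 1.78% of the 33469 rat promoters searched on both strands, from 250 bases before to 50 after the start. It was looked for after these sequences had been seen, and none of the other 7 genes holds it in that window. The start that the RefSeq table uses for Aldh1a1 lies inside the annotated span of the gene.

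The Aldh1a1 probe set (1387022_at; chr1:227426939-227579497 in GRCr8) read between 8.09 and 9.79 in control, with a median of 8.82. Day 2 arrays read 8.86, 7.57 and 6.94, the day 5 arrays 7.60, 5.98 and 7.28, those of day 7 7.28, 7.29 and 8.43, and those of day 14 8.09, 8.72 and 8.29. All 3 arrays of day 5 were below the controls after quantile normalization and 1 of them overlapped the controls as deposited. Aldh1a1 fell by 1.94 ± 0.44 on day 5, that is 3.83-fold (deposited difference -1.37). Without day 5 replicate 2, its lowest array, the difference was -1.45 and no longer passed. The other 8 fits that leave out 1 array kept the call.

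On days 2 and 7 the Aldh1a1 differences were -1.10 and -1.23 ± 0.44, which did not pass on both scales, and on day 14 the difference was -0.53, or 0.03 as deposited. Day 2 replicate 1 read 8.86, in the middle of the controls, and without it the day 2 difference was -1.64 and passed. Without day 2 replicate 3, the lowest at 6.94, it was -0.68 and did not. Aldh1a1 correlated with Dhrs3 at r = 0.79 over 18 arrays and 0.80 over the TNBS arrays. With the epithelial marker mean it correlated at 0.67 and 0.65, and negatively with the means of macrophages and dendritic cells (-0.78 and -0.67), neutrophils (-0.77 and -0.64) and fibroblasts (-0.73 and -0.63). The epithelial mean was between 10.99 and 11.70 on day 5, where 1 of 9 markers fell, and 3 of 7 smooth muscle markers fell on that day. The part of these cell types in the fall of Aldh1a1 was not tested.

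The Aldh1a2 probe set (1368003_at; chr8:80758641-80837891 in GRCr8) read between 4.30 and 5.06 in control, with a median of 4.60. The 3 rats of day 2 gave 4.90, 5.62 and 5.23, the day 5 arrays 5.29, 6.01 and 5.59, those of day 7 5.57, 5.54 and 5.56, and those of day 14 4.71, 4.99 and 4.84. Every array of days 5 and 7 lay above every control array, and on the deposited scale all 12 TNBS arrays did.

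Aldh1a2 rose by 0.60 ± 0.18 on day 2, 0.98 ± 0.18 on day 5 and 0.91 ± 0.18 on day 7, folds of 1.52, 1.97 and 1.88. The difference of 0.20 on day 14 did not pass on both scales. The calls of days 5 and 7 were kept in all 9 fits that leave out 1 array, with values between 0.79 and 1.15 on day 5 and between 0.84 and 0.99 on day 7. That of day 2 was lost without control replicate 5 (0.53), day 2 replicate 2 (0.42) or day 2 replicate 3 (0.61), and it was 0.78 without day 2 replicate 1.

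Markers of macrophages and dendritic cells rose on the same days. Of 8 such markers, 6 rose on day 2, 6 on day 5, 7 on day 7 and 0 on day 14, and their mean lay between 5.34 and 5.53 in control and between 7.72 and 7.82 on day 7. It correlated with Aldh1a2 at r = 0.91 over 18 arrays and 0.92 over the 12 TNBS arrays. Several other lists ran alongside, with r of 0.90 for neutrophils, 0.85 for capillary endothelium, 0.80 for fibroblasts and 0.78 for mesothelium over the 18 arrays. Aldh1a2 did not follow 1 list alone, and the part of any of these cell types in its level was not tested.

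The difference between Aldh1a2 and Aldh1a1 within an array does not depend on the offset between control and TNBS arrays in the way that each gene does. The values of 2 probe sets cannot be compared as levels, so the size of this difference in a group has no meaning of its own and only its change between groups is read. Aldh1a2 minus Aldh1a1 was -4.24 ± 0.33 (SD, n = 6) in control, with a range from -4.74 to -3.79. Values on day 2 were -3.96, -1.96 and -1.70, the day 5 arrays -2.32, 0.04 and -1.70, those of day 7 -1.71, -1.75 and -2.87, and those of day 14 -3.38, -3.72 and -3.45. Of the 12 TNBS arrays 11 lay above all controls on both scales, those of day 14 included, and the exception was day 2 replicate 1. The pair was chosen with the opposite day 5 calls of its 2 genes known, and no other pair was formed. This separation is thus partly built in, and it describes these arrays without testing a change. The group means were above control by 1.70, 2.92, 2.14 and 0.73 on days 2, 5, 7 and 14, and as deposited by 1.95, 3.10, 2.38 and 0.91. Over the 18 arrays Aldh1a1 and Aldh1a2 correlated at r = -0.68, and over the TNBS arrays at r = -0.74.

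Rarb encodes a nuclear receptor for retinoic acid and is itself known as a target of that receptor, through a direct repeat in its promoter. The element is shown because it is the only such repeat with a spacer of 5 bases among the 9 genes. It lies on the plus strand at chr15:11336410-11336439 in GRCr8, from RefSeq, with both hexamers and the spacer in capitals.
Rarb: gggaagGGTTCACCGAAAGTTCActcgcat
The repeat begins 25 bases after the start that RefSeq's table uses, which lies inside the annotated span of the gene. Repeats were searched on both strands for the consensus hexamer AGGTCA, for the 2 hexamers of Rarb itself, GGTTCA in front and AGTTCA behind, and for the variant GGGTCA, in any combination. The match in Rarb was thus fixed in advance. With a spacer of 5 they stood in 0.382% of the 33469 promoters, with a spacer of 1 in 0.233% and with a spacer of 2 in 0.170%, and the latter spacings were found in none of the 9 genes. A lone hexamer, which every repeat contains, stood in 44.4% of promoters and in those of Aldh1a1, Rarb, Rarres2 and Rbp2. TATAAA stood in 14.2% and in those of Crabp2, Rbp2 and Rbp4. A match of letters is a description of the sequence only.

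The Rarb probe set (1376755_at; chr15:10837252-11482037 in GRCr8) read between 3.57 and 4.08 in control, with a median of 3.82. Its day 2 arrays gave 3.68, 3.73 and 4.31, the day 5 arrays 3.85, 3.81 and 3.50, those of day 7 3.85, 3.90 and 3.91, and those of day 14 3.85, 3.85 and 3.64. All groups overlapped control, with day 2 replicate 3 alone above all controls and day 5 replicate 3 alone below them. The differences were 0.10, -0.08, 0.08 and -0.02 ± 0.14, while on the deposited scale they were 0.70, 0.49, 0.65 and 0.52, so the sign turns on days 5 and 14 and Rarb did not pass on both scales. Its mean signal stood at percentile 27.8 of all probe sets, the dimmest of the 9.

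Rarres2 encodes chemerin, a chemoattractant for dendritic cells and macrophages that was first known as a retinoid response gene. Its probe set (1371691_at; chr4:78853450-78856652 in GRCr8) read between 8.78 and 9.24 in control, with a median of 9.05. Within arrays of day 2 it was 8.68, 9.51 and 9.48, the day 5 arrays 8.62, 9.36 and 8.34, those of day 7 9.40, 9.19 and 9.53, and those of day 14 8.53, 8.34 and 7.93. After quantile normalization the group ranges of days 2, 5 and 7 overlapped that of control, but 5 of the 12 TNBS arrays lay above all controls and 6 below them. As deposited 6 lay above all controls and 1 below them. All 3 arrays of day 14 lay below the controls after quantile normalization, and their range overlapped that of control as deposited. The differences were 0.19, -0.26, 0.34 and -0.76 ± 0.21, and as deposited 0.63, 0.21, 0.78 and -0.21, none passing on both scales and that of day 5 turning sign. Over the 12 TNBS arrays Rarres2 correlated with the macrophage and dendritic cell mean at r = 0.82, and over all 18 at r = 0.46. Other lists came close, with r over the TNBS arrays of 0.78 for neutrophils, 0.69 for fibroblasts and -0.72 for epithelium. Over all 18 arrays these were 0.35, 0.48 and -0.60. Rarres2 did not follow 1 list alone, and the part of any of these cell types in its level was not tested.

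Between consecutive sampling days the 9 genes gave calls only from day 7 to day 14. From day 2 to day 5, 0 of the 9 passed, where 0.00644% of probe sets rose and 0% fell, and from day 5 to day 7 again 0, where 0.0161% rose and 0% fell. From day 7 to day 14, 0 rose and 2 fell, where 1.05% of probe sets rose and 2.78% fell. Crabp2 fell by 0.77 ± 0.21, with the arrays of day 14 all below those of day 7. Rarres2 fell by 1.11 ± 0.25, likewise without overlap. Both calls were lost in a fit of days 7 and 14 alone.

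Both calls were sensitive to single arrays. That of Crabp2 was lost in 5 of 6 fits that leave out 1 array, all but the one without day 7 replicate 1, with values of -0.80 without day 7 replicate 2, -0.54 without 3, and -0.68, -0.82 and -0.81 without day 14 replicate 1, 2 or 3. That of Rarres2 was lost in 4 of 6: without day 7 replicate 1 (-1.09) or 3 (-1.03) and without day 14 replicate 2 (-1.14) or 3 (-0.94). Without day 7 replicate 2, Rbp7 was 1.71 higher on day 14 than on day 7 and passed, while without day 7 replicate 1 it was 0.31 higher and with all arrays 1.00 higher, neither of which passed.

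For the 3 genes whose group means spanned the widest range, Rbp7 (3.00), Aldh1a1 (1.94) and Rbp2 (1.56), the genes most like them over the 18 arrays were sought among 13983 genes by Pearson's r. Rbp7 was most like Mkrn1 (r = 0.873), Kiaa1671 (0.870), Prr15 (0.868) and Nat2 (0.864). The control and day 2 means were 8.14 and 6.66 for Prr15 and 8.21 and 6.88 for Nat2, an arylamine N-acetyltransferase. Aldh1a1 was most like Mysm1 (r = 0.923), Acbd5 (0.911), Napb (0.910) and Mmachc (0.907). For Mysm1, a histone deubiquitinase, the means were 6.75 in control and 5.88 on day 5. Rbp2 was most like Sgk2 (r = 0.885), a kinase, followed by Tm6sf2 (0.822), Spata2 (0.820) and Miga2 (0.813). These are the top values of a search and describe likeness in these arrays only.

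The other genes of the pathway were taken from a list of 55 symbols, of which 42 had a single-symbol probe set. On both scales 4, 7, 10 and 2 of them rose on days 2, 5, 7 and 14, and 0, 1, 1 and 0 fell, where 9.13%, 12.1%, 12.4% and 5.61% of all probe sets rose and 0.522%, 1.09%, 1.07% and 0.135% fell. Their median differences were 0.07, 0.03, -0.04 and 0.05, beside -0.01, -0.02, -0.04 and -0.02 over all probe sets. Between days, 0 passed from day 2 to day 5 or from day 5 to day 7, and 0 rose and 2 fell from day 7 to day 14. All adjusted p below are limma's with Benjamini-Hochberg adjustment over all probe sets after quantile normalization.

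Aldh1a3, the third retinal dehydrogenase of the family, had the largest difference of these genes. It read between 4.26 and 5.58 in control and between 7.18 and 8.68 on day 5, with no overlap. It rose by 2.99 ± 0.47 on day 5 (adjusted p = 0.000345) and the call was kept in all 9 fits that leave out 1 array, with values from 2.53 to 3.28. The group means were 5.88 on day 2, 6.03 on day 7 and 5.79 on day 14, and none of these days passed. That of day 7, 1.24 ± 0.47, passed without control replicate 2 (1.40) or 5 (1.39) or day 7 replicate 2 (1.76).

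Of 9 genes of retinol uptake and storage, 1, 1, 2 and 1 rose on days 2, 5, 7 and 14 and 0 fell. Scarb1, a lipoprotein receptor that also takes up carotenoids, rose by 0.97 ± 0.25 on day 2 (adjusted p = 0.0153), 1.59 on day 5 (adjusted p = 0.000377) and 1.72 on day 7 (adjusted p = 0.000172). The day 2 call was lost without day 2 replicate 2 (0.86) or 3 (0.95), and without day 7 replicate 2 Scarb1 fell by 1.42 from day 7 to day 14, which did not pass with all arrays. Lrat, the enzyme that esterifies retinol, rose by 1.50 ± 0.31 on day 7 (adjusted p = 0.00216), from between 3.25 and 3.55 in control to between 3.75 and 5.99, and was 1.59 lower on day 14 than on day 7. This fall was lost without day 7 replicate 1 (-1.03) or 3 (-1.60) or day 14 replicate 2 (-1.47) or 3 (-1.54). The width of the day 7 group is visible in the day 7 value of Lrat without 1 array, which ranged from 0.94 to 2.06 with the call kept. The Lrat probe set was dim, at percentile 25.6 of all probe sets.

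Bco1, which cleaves beta-carotene into retinal, rose by 1.21 ± 0.34 on day 14 (adjusted p = 0.0323). The call was lost without control replicate 1 (1.04), 2 (1.14) or 4 (1.20) or day 14 replicate 1 (1.35) or 2 (0.88). Stra6, the membrane receptor for Rbp4, did not pass, with differences from -0.16 to -0.02 (adjusted p between 0.394 and 0.934) and from 0.59 to 0.75 as deposited.

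Among 13 enzymes between retinol and retinal, 1, 1, 2 and 1 rose on days 2, 5, 7 and 14 and 0 fell. Rdh11, a retinal reductase, accounts for all but 1 of these, with rises of 0.51 ± 0.13 on day 2 (adjusted p = 0.013), 0.37 on day 5 (adjusted p = 0.0456), 0.49 on day 7 (adjusted p = 0.0115) and 0.64 on day 14 (adjusted p = 0.00533). The day 14 call was kept in all 9 fits that leave out 1 array. That of day 2 was lost without day 2 replicate 1 (0.43) or 2 (0.46), that of day 7 without day 7 replicate 2 (0.38), and that of day 5 in 8 of 9 fits, all but the one without control replicate 6, with values from 0.28 to 0.44. Rdh7 rose by 0.37 ± 0.12 on day 7 (adjusted p = 0.024), lost without day 7 replicate 2 (0.38) or 3 (0.29). The Rdh7 probe set was dim, at percentile 16.6 of all probe sets. Rdh10, the main retinol dehydrogenase of the embryo, did not pass; its largest difference was 0.44 ± 0.16 on day 2 (adjusted p = 0.069), which passed without control replicate 4 (0.51), and that of day 7 turned from -0.24 to 0.62 as deposited.

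Of 5 genes that clear or bind retinoic acid, 1 rose on days 2, 5 and 7 and 0 on day 14. It was Fabp5, a fatty acid binding protein that can also carry retinoic acid, with rises of 1.36 ± 0.45 on day 2 (adjusted p = 0.0456), 1.34 on day 5 (adjusted p = 0.0388) and 1.82 on day 7 (adjusted p = 0.00698). Its day 7 call was kept in all 9 fits that leave out 1 array. That of day 2 was lost in 7 of 9, all but those without control replicate 2 or day 2 replicate 1 (values from 0.88 to 2.07), and that of day 5 in 6 of 9, all but those without control replicate 1 or 2 or day 5 replicate 1 (values from 0.74 to 1.75). Cyp26b1, which degrades retinoic acid, differed by 0.16, 0.13, 0.03 and 0.04 ± 0.11 and did not pass (adjusted p between 0.341 and 0.86).

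Among 7 receptors and corepressors, 0, 1, 2 and 0 rose and 0, 1, 1 and 0 fell on days 2, 5, 7 and 14. Rara rose by 0.70 ± 0.17 on day 5 (adjusted p = 0.00661) and 0.65 on day 7 (adjusted p = 0.00924). The former was lost without day 5 replicate 2 (0.58) and the latter without day 7 replicate 1 (0.54). Rarg rose by 0.56 ± 0.18 on day 7 (adjusted p = 0.032), lost without control replicate 2 (0.50), 4 (0.52) or 5 (0.51) or day 7 replicate 1 (0.48) or 3 (0.46). Rxra did not pass, with differences from -0.23 to -0.07 and from 0.58 to 0.75 as deposited.

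Nrip1, a corepressor that binds liganded retinoic acid receptors, was the only gene of the 42 that fell against control. It read between 8.21 and 8.48 in control, between 6.72 and 7.42 on day 5 and between 6.66 and 7.41 on day 7. The falls were 1.20 ± 0.17 on day 5 and 1.16 ± 0.17 on day 7 (adjusted p = 0.000194 for both), lost without day 5 replicate 2 (-1.01) and without day 7 replicate 1 (-0.92). On day 2 the difference was -0.90, which passed without day 2 replicate 1 (-1.07) but not with it.

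Among 5 response genes of retinoic acid, 1, 2, 2 and 0 rose on days 2, 5, 7 and 14. Rarres1, a membrane protein named for its response to retinoids, rose by 1.29 ± 0.44 on day 2 (adjusted p = 0.0495), 1.48 on day 5 (adjusted p = 0.0201) and 1.87 on day 7 (adjusted p = 0.00476). The day 2 call was lost in 8 of 9 fits that leave out 1 array, all but the one without day 2 replicate 1 (1.85), with 0.63 without day 2 replicate 3, and the day 5 call without day 5 replicate 2 (1.06). Tgm2, a transglutaminase, rose by 0.71 ± 0.24 on day 5 (adjusted p = 0.0378) and 0.94 on day 7 (adjusted p = 0.00757) and fell by 1.36 from day 7 to day 14 (adjusted p = 0.0111). Its day 5 call was lost in 6 of 9 fits, all but those without control replicate 3 or 6 or day 5 replicate 1 (values from 0.61 to 0.87), its day 7 call without day 7 replicate 1 (0.69), and the fall to day 14 without day 7 replicate 1 (-1.10) or day 14 replicate 2 (-1.30) or 3 (-1.24).

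Of 2 measured chemerin receptors, Ccrl2, which binds chemerin on the cell surface and presents it, rose by 1.46 ± 0.27 on day 7 (adjusted p = 0.000859), with the call kept in all 9 fits that leave out 1 array. It read between 4.24 and 4.87 in control and between 5.52 and 6.67 on day 7. Cmklr1, the signalling receptor, did not pass. Its differences were 0.46, 0.47, 0.53 and 0.14 ± 0.22, with adjusted p = 0.0857 on day 7. The day 7 arrays lay above all controls only by a very narrow margin, the lowest at 5.1582 and the highest control at 5.1580.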

How the data were processed

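Full-thickness colon RNA of 18 rats was hybridised to Affymetrix Rat Genome 230 2.0 arrays, which the authors normalized with the Bioconductor package affyPLM, per the labels. The deposited table holds 31099 probe set values, read here as log2 from their range; its log base, its background method and the set of arrays normalized jointly could not be taken from the labels. The 57 control probe sets of the array design were dropped, and 0 columns of other samples were present. A probe set was named where the platform annotation gives 1 symbol (20826 of 31042).

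The 18 arrays were quantile-normalized together. limma 3.58.1 in R 4.3.3 fitted 1 coefficient per group (control 6, TNBS days 2, 5, 7 and 14, 3 each) to all arrays on each scale, with two-sided moderated tests and Benjamini-Hochberg adjustment over the 31042 probe sets. A call needs an adjusted p under 0.05 in the same direction on both scales. The labels number the replicates without naming separate litters or batches, so p-values measure the spread between these samples. Where a gene has several single-symbol probe sets, the one of highest mean stands for it.

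The 9 genes, the pathway list, the marker lists and the rules were chosen with earlier results of these data known. Pathway genes are named from a fixed panel (Stra6, Lrat, Rdh10, Aldh1a3, Cyp26b1, Rara, Rarg, Rxra, Cmklr1; a further item is not reported here) plus, in each role, up to 3 called against control with the smallest adjusted p. Likeness uses the 4 highest Pearson r, symbols beginning with LOC or RGD passed over. Alternatives were either scale or median centring alone, leaving out the lowest 50% of probe sets, a trend and robust prior, a fit of the 2 groups compared, replicate number as a block, all single-symbol probe sets, and leaving out each array in turn. Promoters and gene positions are RefSeq's for GRCr8; all 9 genes matched.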

Additional observations from a re-analysis of the deposited data

Results flagged for a closer look

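The control array of replicate 3 read 7.84 for Rbp2, the enterocyte retinol-binding protein, while the other control arrays lay between 4.90 and 5.66. Its gap to the next array was 0.740 of the range of the 6 controls, above the critical value of Dixon's test for a group of this size, which chance alone also exceeds in some groups. Without that array the day 2 difference of Rbp2 was -1.14 in place of -1.56, and it did not pass on both scales either way. The differences of days 5, 7 and 14 were then -0.79, -0.75 and 0.35 in place of -1.21, -1.17 and -0.06, and none passed.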

How the results depend on the processing

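Most choices left single-gene values in place: of the differences of the 9 genes recomputed under an alternative, 786 kept their call or moved by less than the spread between replicates, 30 moved further, 25 no longer passed and 2 reversed, and of those of the named pathway genes 1459 kept their direction and call, 79 changed sign with no call on either side, 88 no longer passed, 58 newly passed and 9 reversed. The scale mattered most. With deposited values alone 4, 3, 4 and 3 of the 9 genes and 36, 35, 33 and 35 pathway genes were higher than control on days 2, 5, 7 and 14, where 82.8%, 80.9%, 80.1% and 86.7% of all probe sets were. With quantile-normalized values alone 2, 2, 2 and 1 of the 9 and 4, 5, 9 and 3 pathway genes were lower, beside 9.85%, 14.4%, 15.9% and 6.09% of all probe sets. With median-centred values alone 3, 4, 2 and 1 of the 9 and 10, 10, 12 and 8 pathway genes were lower, beside 31.3%, 35.7%, 39.7% and 28.2% of all probe sets. On day 7, 1 of the 9 was then higher, beside 11.1% of all probe sets. As deposited, differences turned for Rarb to 0.49 on day 5 and 0.52 on day 14, for Rdh10 to 0.62 on day 7, for Stra6 to 0.75, 0.64, 0.61 and 0.59, and for Rxra to 0.68, 0.58, 0.75 and 0.64 on the 4 days. Among the 9 genes the sign also turned for Rbp2, Rbp7, Crabp2 and Aldh1a1 on day 14 and for Rarres2 on day 5. For Rbp4 and Dhrs3 it turned on days 2 and 7. The offset between the deposited control and TNBS arrays enters all these values by construction.

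A fit of only the 2 groups compared called 0 of the 9 genes higher on day 2, 1 on day 7 and 1 lower from day 7 to day 14, which was Aldh1a2 (-0.71), while the falls of Crabp2 and Rarres2 no longer passed; of the pathway genes it called 2 higher on day 2, 2 lower on days 5 and 7, and 1 lower from day 7 to day 14. Without the lowest 50% of probe sets 1 of the 9 was higher on day 7, since Crabp2 was then not tested. For these fits, and for those with a replicate block or without 1 array, the share of all probe sets that passed was not counted. Nothing is read from a change in their counts. Over all single-symbol probe sets 11 of the pathway were higher on day 5.

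Same-numbered arrays of different TNBS days had correlations of their deviations between -0.33 and 0.47. The highest were 0.47 and 0.42, for replicates 1 and 2 of days 2 and 5. With 3 arrays per day such values cannot settle whether replicate numbers pair the arrays. With a replicate block, 2 of the 9 were higher on day 5, the pathway counts were 2 higher on day 2, 4 higher and 0 lower on day 5 and 0 lower on day 7, and the fall of Rarres2 from day 7 to day 14 no longer passed.

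Leaving out 1 array at a time, the counts among the 9 genes ranged from 0 to 1 higher and 1 to 2 lower on day 2, 1 to 2 higher and 0 to 1 lower on day 5, 1 to 2 higher and 0 to 1 lower on day 7, and 0 to 1 higher and 0 to 1 lower from day 7 to day 14. Among the pathway genes they ranged from 0 to 3 higher and 0 to 1 lower on day 2, 2 to 6 higher and 0 to 2 lower on day 5, 8 to 10 higher and 0 to 2 lower on day 7, 1 to 2 higher on day 14, and 0 to 3 lower from day 7 to day 14. The number of arrays, 3 per day, limits the precision. For dim probe sets such as those of Rarb, Lrat and Rdh7 the distance from background was not assessed.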
